A study of Homo sapiens with 2 samples.

Results

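The mitochondrial ribosomal protein genes, named MRPL for the large and MRPS for the small subunit, were described in SW48 cells, a long-established line from a human colorectal cancer. Members were all rows of the expression table whose platform gene symbol was MRPL or MRPS followed by a number, with pseudogenes left out. This gave 74 of 17687 named genes, 47 of the large and 27 of the small subunit, each measured by 1 probe set. The siYY1 cells received an siRNA against YY1, a zinc finger transcription factor, and the siControl cells a negative control siRNA, both at 5 nmol/L and with RNA taken after 3 days. One siRNA sequence was used against YY1. Whole-transcript GeneChip arrays measured total RNA, with 1 array for siYY1 and 1 for siControl. YY1 itself was not analysed here, so neither the size of the knockdown nor the labels of the arrays were checked against it.

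The few proteins of the mitochondrial genome are all subunits of respiratory chain complexes or of the ATP synthase. Mitochondria translate them on a ribosome separate from that of the cytosol. The RNAs of this ribosome come from the mitochondrial genome, whereas all of its proteins are encoded in the nucleus, made in the cytosol and imported. Many of these proteins descend from bacterial ribosomal proteins and others are found only in mitochondria. Inherited defects in several of the genes cause combined respiratory chain deficiency. YY1 has been reported to regulate nuclear genes of mitochondrial function, and its binding motif is common near the start sites of housekeeping genes.

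Sequences near the start sites were examined first, for 9 letters of the known YY1 binding motif, AANATGGCG. Of the 74 genes, 66 had at least 1 entry in the promoter table (250 bases before to 50 bases after an annotated start, RefSeq, GRCh38.p14). The motif, searched on both strands, was found at 18 of the 66 genes (27.3%). It was found at 9.42% of the 7462 genes with an entry that passed the expression filter described below, and at 3.85% of all 27305 genes in the promoter table. Both subunits held it, with 11 of 40 large and 7 of 26 small subunit genes. Of 20 matches at the members, 16 lay on the sense strand downstream of the start, their first base between positions 7 and 36 with the first transcribed base as 1. Such a placement was found at 24.2% of members and at 5.29% of filtered genes. The match contains the letters ATG, and whether these were the start codon was not tested. A match in these letters is not a measured binding site.

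The following stretches show the match in capitals, 5′ to 3′ on the strand of the gene. They were chosen to span the differences measured between the arrays, first genes that were higher in siYY1, then genes close to 0, then genes that were lower.
MRPL22, chr5:154941098-154941122, plus strand: gggagggcgaAAGATGGCGgcggca
MRPL1, chr4:77862836-77862865, plus strand: cggagtgcccAACATGGCGgcggccgtaag
MRPL50, chr9:101398576-101398605, minus strand: gatctcatcgAAGATGGCGgcgcgatctgt
MRPL46, chr15:88467361-88467390, minus strand: gggagaacgaAAGATGGCGgcgcccgtaag
MRPS18A, chr6:43687763-43687792, minus strand: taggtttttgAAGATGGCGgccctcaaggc
MRPS9, chr2:105038080-105038109, plus strand: tcccacagctAACATGGCGgcgccctgtgt
MRPL42, chr12:93467512-93467541, plus strand: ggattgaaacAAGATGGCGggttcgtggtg
MRPL9, chr1:151763463-151763492, minus strand: tgtgcctgtgAACATGGCGgcgcccgttgt
MRPL32, chr7:42932374-42932403, plus strand: tccagcagggAAAATGGCGctggccatgct
In all of these but MRPL42 and MRPL32 the match is followed directly by GC, as in longer forms of the YY1 motif.

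The values of the expression table were read as log2, although their log base is not given. Genes were kept when their mean over both arrays reached 7.54, the median over named genes. This kept 8844 genes, among them 71 of the 74 members. Each difference is the log2 value in siYY1 minus that in siControl. There was no replicate, no test was possible, and a difference of at least 1.5-fold (0.58 on the log2 scale) was used as a fixed rule of size. In bulk RNA, fewer cells of a kind and less RNA per cell cannot be told apart. The kept members spanned 7.67 to 14.28 in siYY1 and 7.84 to 14.46 in siControl, so none was under the filter value on either array. Of 9 colorectal epithelial markers on the array, 6 were kept, while CDX1, VIL1 and GPA33 were under the filter. EPCAM (16.24 in siYY1 and 16.04 in siControl), CDX2 (12.06 and 11.91), CDH1 (13.57 and 13.55) and KRT8 (16.36 and 16.35) were slightly higher in siYY1. KRT19 (14.33 in siYY1 and 14.67 in siControl) and KRT18 (15.47 and 15.67) were lower. Of 10 fibroblast and leukocyte markers on the array, COL1A2 (9.05 in siYY1 and 8.60 in siControl) and CD79A (7.77 and 7.72) were kept.

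Most members were slightly lower in siYY1. Of the 71 kept, 44 (62.0%) were below 0, against 49.6% of all genes kept, and the median difference was -0.13, against 0.00 over all genes kept. At 1.5-fold, 2 members (2.82%) were lower and 0 were higher. Over all genes kept, 3.78% were at least 1.5-fold lower and 3.04% at least 1.5-fold higher, so the share of members that were lower by this amount was near the background. At a difference of at least 0.32 on the log2 scale in size, 13 members (18.3%) were lower and 3 (4.23%) higher, against 13.5% and 12.2% of all genes kept. The interquartile range of the differences was 0.36 for the members and 0.37 for all genes kept, which describes a similar spread around a lower centre. Differences under -0.2 were seen in 40.8% of members and 23.7% of all genes kept. Differences above 0.2 were seen in 8.45% of members and 23.1% of all genes kept. The kept genes were not matched to the members on level, and the part of level in these shares was not tested.

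**Figure D1:**
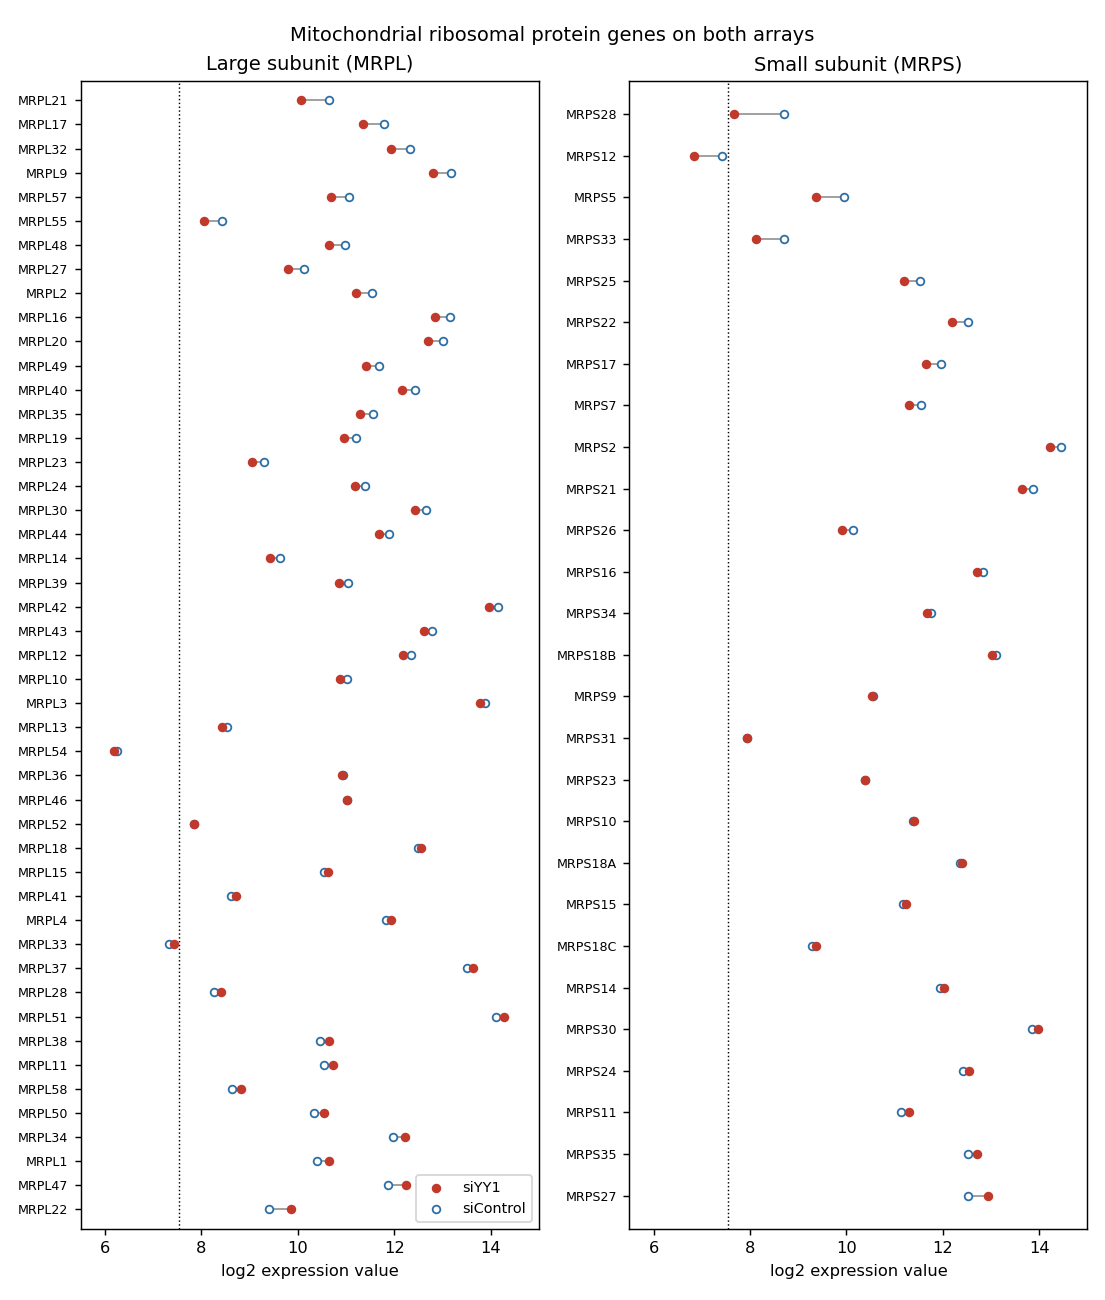
Log2 expression value (horizontal axis) of every member on the siYY1 array (filled red) and the siControl array (open blue), with the large subunit on the left and the small subunit on the right, ordered from the most negative difference at the top. The dotted line is the filter value of 7.54. The line joining the arrays is longest for MRPS28, and most genes in the upper part of each panel lie lower in siYY1.

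The lowest difference belonged to MRPS28, a small subunit protein that corresponds to bacterial ribosomal protein S1 and whose gene is mutated in a combined respiratory chain deficiency. It measured 7.67 in siYY1 and 8.71 in siControl, a difference of -1.04 or 2.06-fold lower. The siYY1 value was close to the filter value, where the size of a difference is less certain. MRPS28 lies on chromosome 8 and is spanned by a readthrough gene, TPD52-MRPS28, that joins it to its neighbour TPD52. TPD52 was at 13.44 in siYY1 and 13.39 in siControl, a difference of 0.05. HEY1, the neighbour on the other side, was under the filter on both arrays, at 4.89 in siYY1 and 4.44 in siControl. Neither of these neighbours was lower in siYY1.

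MRPL21, a large subunit protein with a bacterial counterpart, was the other member past 1.5-fold. It measured 10.07 in siYY1 and 10.65 in siControl, a difference of -0.59, which was at the limit of the rule of 1.5-fold. Its neighbours on chromosome 11 were higher rather than lower in siYY1. CPT1A, the carnitine palmitoyltransferase of fatty acid import, was at 10.96 in siYY1 and 10.69 in siControl, and IGHMBP2, a helicase gene, at 9.61 in siYY1 and 9.49 in siControl. After quantile normalization MRPL21 was at -0.56 and after lowess centring at -0.57, under the rule in both cases.

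Some small subunit genes lay just short of the rule. MRPS5, which lies at the entry of the mRNA channel, measured 9.37 in siYY1 and 9.95 in siControl (difference -0.58). MRPS33, a mitochondria-specific protein of the head, measured 8.13 in siYY1 and 8.70 in siControl (difference -0.58). MRPS12, a decoding centre protein, was 6.83 in siYY1 and 7.42 in siControl (difference -0.59), but both values were under the filter. Without the filter, 3 of the 74 members (4.05%), MRPS12 among them, were at least 1.5-fold lower, against 3.9% of all named genes. Its neighbour SARS2, which encodes the mitochondrial seryl-tRNA synthetase, was at 10.07 in siYY1 and 9.83 in siControl. FBXO17, an F-box protein gene on the other side, was under the filter, at 4.08 in siYY1 and 4.41 in siControl. The other members under the filter differed little, with MRPL33 at 7.43 in siYY1 and 7.32 in siControl, and MRPL54 at 6.19 in siYY1 and 6.25 in siControl.

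At the other end, MRPL22, which lines the exit tunnel for the nascent chain, measured 9.85 in siYY1 and 9.41 in siControl, a difference of 0.44 or 1.36-fold higher. MRPS27, a mitochondria-specific small subunit protein with pentatricopeptide repeats, measured 12.93 in siYY1 and 12.52 in siControl (difference 0.42). MRPL47, at the tunnel exit, measured 12.25 in siYY1 and 11.88 in siControl (difference 0.37). These were the 3 members higher by at least 0.32. Smaller positive differences followed. MRPL1, the protein of the L1 stalk, was 10.66 in siYY1 and 10.39 in siControl, and MRPL34 was 12.23 in siYY1 and 11.98 in siControl. MRPL50, a mitochondria-specific protein, was 10.55 in siYY1 and 10.35 in siControl.

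**Figure D2:**
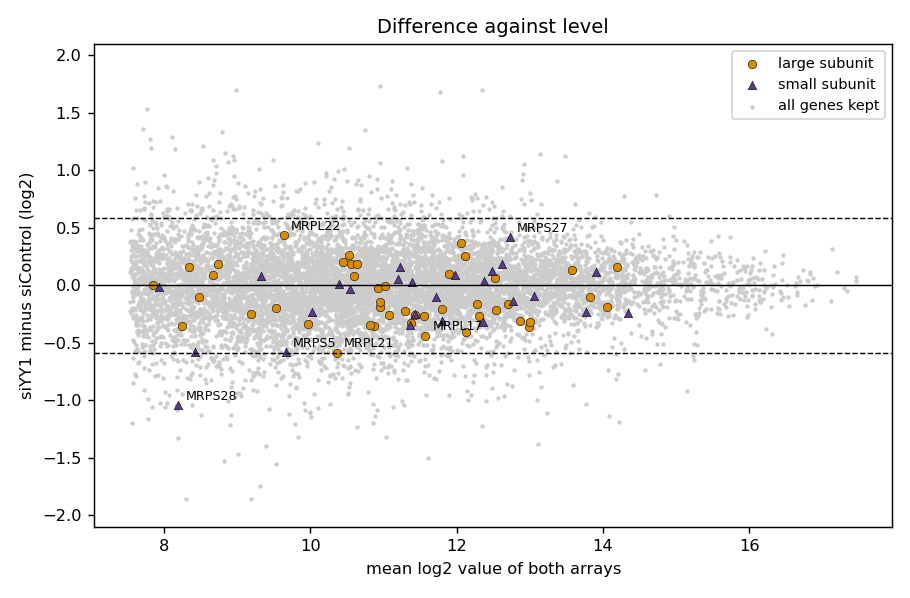
Difference between siYY1 and siControl (log2, vertical axis) against the mean log2 value of both arrays (horizontal axis) for large subunit genes (orange circles), small subunit genes (purple triangles) and all 8844 genes kept (grey), with dashed lines at 1.5-fold. Of the members, MRPS28 and MRPL21 are past the lower line, and none is past the upper line. One gene that is not a member lies beyond the vertical axis.

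The subunits were then compared. Of 45 large subunit genes kept, 29 (64.4%) were lower in siYY1, with a median of -0.16 (quartiles -0.27 and 0.10). Of 26 small subunit genes kept, 15 (57.7%) were lower, with a median of -0.06 (quartiles -0.25 and 0.07). Over all genes kept, 49.6% were lower. The interquartile range of single genes was 0.37 in the large and 0.32 in the small subunit, which does not give the uncertainty of a median. The large minus small difference of the medians was -0.10. By the mean its direction turned, with -0.10 for the large and -0.12 for the small subunit and a large minus small value of 0.02. Differences under -0.2 were seen in 19 of 45 large (42.2%) and 10 of 26 small subunit genes (38.5%). The order of the subunits thus depended on the summary used.

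Names do not always give the place of a protein. MRPS18A and MRPS30 are held by the large subunit in the human structure. MRPS30 measured 13.97 in siYY1 and 13.85 in siControl, and MRPS18A 12.39 in siYY1 and 12.35 in siControl. When both were counted with the large subunit, the medians were -0.16 for the large and -0.09 for the small subunit, a difference of -0.06. MRPS18A has 2 paralogs in the small subunit, of which MRPS18B measured 13.02 in siYY1 and 13.10 in siControl, and MRPS18C 9.37 in siYY1 and 9.29 in siControl. All 3 paralogs differed by less than 0.1.

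Proteins with a bacterial counterpart and those found only in mitochondria were next set apart. The 29 kept large subunit genes with a bacterial counterpart had a median of -0.19, and 20 of them (69.0%) were lower. The 16 mitochondria-specific large subunit genes had a median of -0.09, with 9 (56.25%) lower. Of all kept members 62.0% were lower, and of all genes kept 49.6%. In the small subunit the medians were -0.08 over 14 genes with a counterpart and -0.09 over 10 mitochondria-specific genes. The lowest large subunit genes with a counterpart, after MRPL21, were MRPL17 near the tunnel exit, MRPL32 and MRPL9. MRPL17 measured 11.35 in siYY1 and 11.79 in siControl (difference -0.44). MRPL32 measured 11.93 in siYY1 and 12.33 in siControl (difference -0.40). MRPL9 measured 12.81 in siYY1 and 13.17 in siControl (difference -0.36).

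By place in the large subunit, genes of the tunnel exit differed in both directions. Of its 6 kept genes, MRPL17, MRPL23 (-0.25), MRPL24 (-0.22) and MRPL44 (-0.21) were lower, whereas MRPL22 and MRPL47 were higher. MRPL44, which has a ribonuclease-like fold and a known disease association, measured 11.69 in siYY1 and 11.90 in siControl. In the central protuberance, one of the contacts to the small subunit, 5 of 8 genes (62.5%) were lower with a median of -0.14. This share was close to the 62.0% of all kept members. MRPL55 (-0.36), MRPL48 (-0.34), MRPL27 (-0.34) and MRPL40 (-0.26) were well below 0, while MRPL46 (-0.01) and MRPL52 (0.01) hardly differed. MRPL18 (0.07) and MRPL38 (0.18) were above 0. The 4 stalk genes kept divided evenly. MRPL12, the factor-recruiting stalk protein, measured 12.19 in siYY1 and 12.35 in siControl (difference -0.16), and its anchor MRPL10 differed by -0.14. MRPL11 at the stalk base (0.19) and MRPL1 (0.26) were higher. MRPL58, a peptidyl-tRNA hydrolase that belongs to the ribosome and can release stalled chains, differed by 0.19.

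In the small subunit, the 8 head genes had a median of 0.01 and 4 were lower. The 16 body and platform genes kept had a median of -0.18 and 11 were lower. The head held MRPS33 and MRPS7 (-0.25) on the low side, and MRPS24 (0.13) and MRPS35 (0.19) on the high side. In the body, MRPS25 (-0.34), MRPS22 (-0.32), MRPS17 (-0.31), MRPS2 (-0.24), MRPS21 (-0.23) and MRPS26 (-0.23) followed MRPS28 and MRPS5. MRPS11 on the platform (0.16) and MRPS27 were the highest of this group.

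Of 14 members known as respiratory chain disease genes, 11 (78.6%) were lower in siYY1, against 62.0% of all kept members and 49.6% of all genes kept, and the median was -0.17. Apart from MRPS28 the lowest were MRPS25 and MRPS22. MRPL3 (-0.10), MRPS34 (-0.10) and MRPS16 (-0.13) were close to the median of the family. MRPS23 (0.01), MRPS14 (0.09) and MRPL50 (0.20) were above 0.

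**Figure D3:**
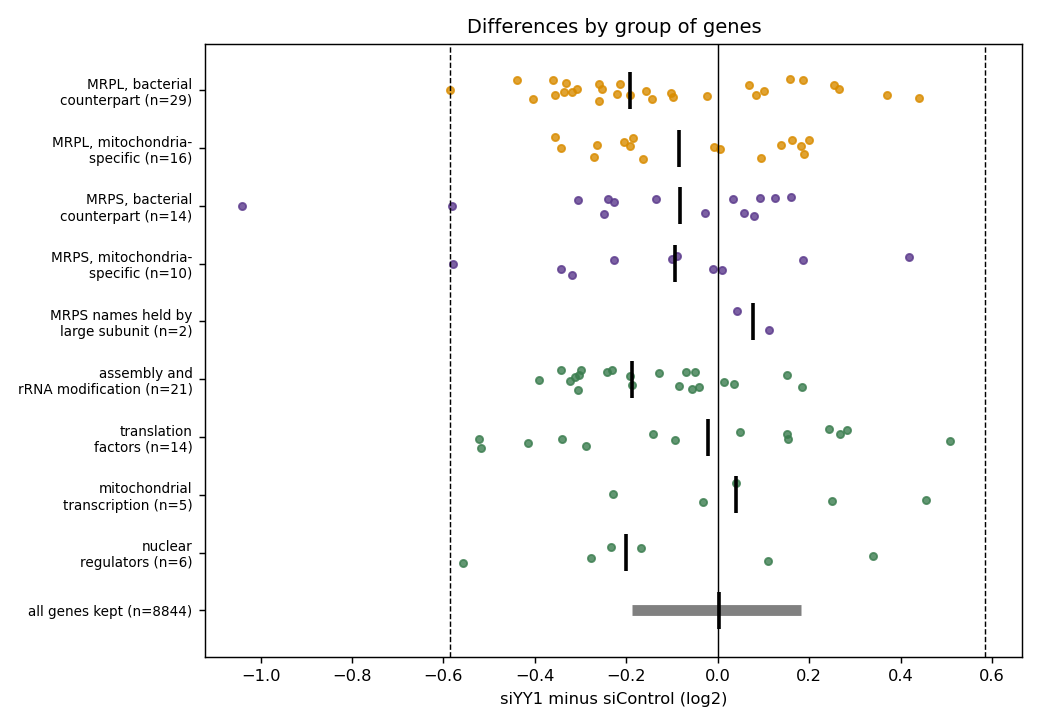
Difference between siYY1 and siControl (log2, horizontal axis) for kept genes of each group, 1 point per gene. Genes named MRPL are orange and other genes of mitochondrial gene expression are green. Genes named MRPS, including MRPS18A and MRPS30 of the large subunit, are purple. Black bars are medians, dashed lines mark 1.5-fold, and the grey band spans the quartiles of all 8844 genes kept. Vertical scatter within a group has no meaning. The medians lie between -0.20 and 0.08, inside or close to the edge of the grey band.

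Genes that build or serve the mitochondrial ribosome were compared with its proteins. None of the kept genes in these lists was past 1.5-fold. Of 21 kept genes of ribosome assembly and rRNA modification, 17 (81.0%) were lower in siYY1, against 49.6% of all genes kept, with a median of -0.19. MTERF3, a factor of ribosome assembly, measured 9.78 in siYY1 and 10.17 in siControl (difference -0.39). TFB1M, which methylates the small subunit rRNA, measured 9.17 in siYY1 and 9.52 in siControl (difference -0.34). The RNA helicase gene DHX30 (0.18) and the rRNA methyltransferase gene NSUN4 (0.15) were at the other end. Ribosomal proteins that carry other names differed less, with DAP3 at -0.13, CHCHD1 at -0.11, PTCD3 at 0.01 and GADD45GIP1 at 0.09.

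Translation factors were split, with 7 of 14 lower and a median of -0.02. Both initiation factors were low. MTIF3 measured 11.28 in siYY1 and 11.80 in siControl, and MTIF2 12.30 in siYY1 and 12.81 in siControl, each a difference of -0.52. At the other end, MTFMT, which formylates the initiator methionyl-tRNA, measured 11.53 in siYY1 and 11.02 in siControl (difference 0.51), and MTRFR, a release factor of stalled ribosomes, differed by 0.28. For mitochondrial transcription, 5 genes were kept with a median of 0.04. The mitochondrial RNA polymerase gene POLRMT (-0.23) and the tRNA-processing gene ELAC2 (-0.03) were lower, and MTERF2 (0.46) and TFAM (0.25), which packages mitochondrial DNA, were higher. Among 6 nuclear regulators kept, 4 (66.7%) were lower in siYY1, against 49.6% of all genes kept, with a median of -0.20. GABPB2, a subunit of the GA-binding protein, was lowest at 9.04 in siYY1 and 9.60 in siControl (difference -0.56), followed by the coactivator gene PPRC1 (-0.28). The nuclear receptor gene ESRRA (0.34) and GABPA (0.11) were higher.

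The differences were then set beside the motif described above. The 18 members with a match to AANATGGCG, all of them kept, had a median of 0.04, and 7 of 18 (38.9%) were lower in siYY1. The 45 kept members with a promoter entry and no match had a median of -0.19, and 30 of 45 (66.7%) were lower. Members with the match ranged from -0.40 (MRPL32) to 0.44 (MRPL22), so the groups overlapped over nearly the whole range. Over all filtered genes the corresponding medians were 0.04 with the match (703 genes) and 0.00 without (6759 genes). Of these filtered genes, 45.4% with the match and 50.1% without it were lower in siYY1. Neither gene past 1.5-fold entered this comparison, since MRPS28 and MRPL21 were not among the 66 genes with an entry. Other forms of the motif overlap with it, since ATGGCG is its last 6 letters and CCATNTT is the reverse complement of its first 7. ATGGCG was found at 33 of 66 members and 23.6% of filtered genes, and the medians of the members were -0.01 with and -0.18 without it. Over all filtered genes the order was the opposite, with medians of -0.013 with and 0.0076 without these letters. CCATNTT was found at 31 of 66 members and 21.5% of filtered genes, and the medians of the members were 0.04 with and -0.21 without it, against 0.0086 with and 0.0007 without it over all filtered genes. No test was made, and these values describe 1 array per group.

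**Figure D4:**
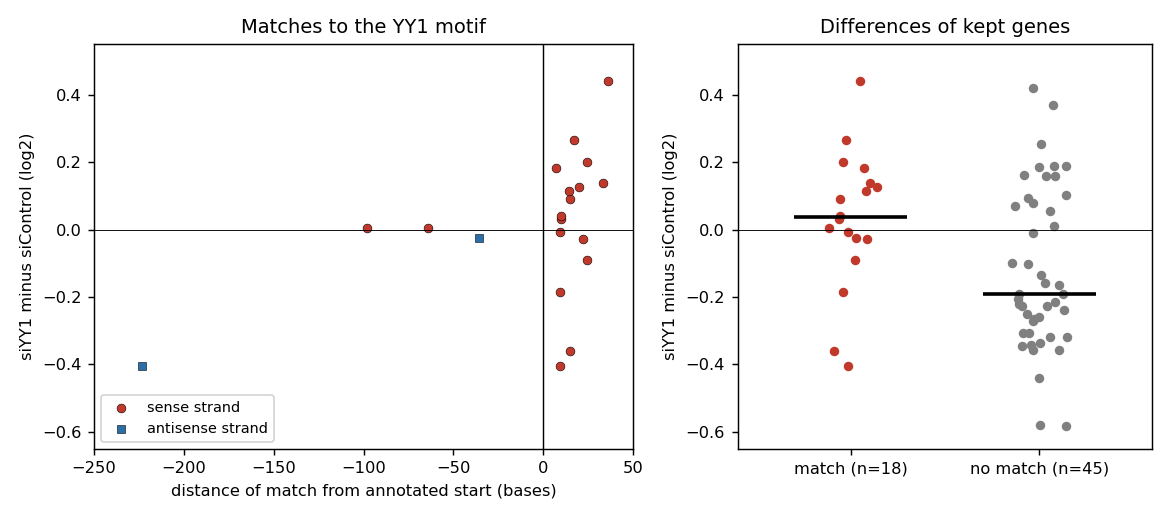
Left, position of each match to the 9-letter YY1 motif relative to the annotated start (horizontal axis, bases) against the difference between siYY1 and siControl of its gene (log2, vertical axis), for sense (red circles) and antisense matches (blue squares). Right, differences of kept members with a match (18 genes) and without one (45 genes), 1 point per gene, with medians of 0.04 and -0.19 as black bars and horizontal scatter without meaning.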

How the data were processed

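Total RNA of SW48 cells was measured on 2 whole-transcript arrays, grouped by sample title. Lipid transfection and biotin labelling of sense cDNA are recorded per the labels' protocols. The deposited table gives each probe set a single value per array, which was read as log2. How the authors corrected background and normalized, and the log base, is not given in these sources. The sorted values of both arrays differed by at most 0.153, and values reached 17.97 in siYY1 and 17.90 in siControl, above the log2 of the highest raw reading of a 16-bit scanner, which is 16. No member had a value above 16. A fold assumes plain log2.

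Of 21448 probe sets, 17709 had 1 symbol in GEO's platform annotation, 0 had several and 3739 were unnamed. Entrez identifiers matched to RefSeq (GRCh38.p14) changed 0 symbols. Probe sets of a gene were averaged, although every member had 1. Genes with a mean at or above the median were kept. Of the members, 17 overlap another protein-coding gene, and MRP genes have processed pseudogenes, so single values can include other transcripts. MRPL45, MRPL53, MRPS6, MRPS36 and AURKAIP1 were not analysed here.

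No p-value was computed. Precision is limited by the number of arrays. The members and lists were chosen with earlier results of these data known. Named were the 6 lowest and 6 highest kept members, members past 1.5-fold with their neighbours, members not kept, the MRPS18 paralogs, MRPS12, MRPL12, MRPL44, and up to 2 genes at each end of a companion list. Other members are named as parts of their group. Alternatives were other filters, thresholds, centrings, quantile normalization, the brightest probe set, genes above 16 left out and subunits by structure. The code for the differences and for the rule of 1.5-fold was run on simulated data with known shifts. This run checked the code only and says nothing about scatter between real arrays. Python 3.11.15, numpy 2.4.6, pandas 2.3.3, statsmodels 0.14.6 and matplotlib 3.10.9 were used.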

Additional observations from a re-analysis of the deposited data

How the results depend on the processing

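No paired analysis was possible because each group had 1 array. With no replicate spread, a value was taken to have moved when it changed by over 1.5 times. The median difference of the members stayed between -0.16 and -0.12 under all alternatives run, and that of the large subunit between -0.20 and -0.16. The small subunit median was -0.089 without the filter, -0.028 with a stricter filter (75th percentile) and -0.095 with subunits by structure. The large minus small value was -0.069, -0.17 and -0.063 under these settings, and it turned to 0.023 when means replaced medians, an alternative chosen after seeing the data. The small subunit mean includes MRPS28 at -1.04. The number of members past the rule of 1.5-fold lower was 0 with the stricter filter, which leaves out MRPS28 and MRPL21, and 1 after quantile normalization and after lowess centring (fraction 0.3). With a threshold of 0.32 on the log2 scale it was 13 lower and 3 higher, and at 2-fold 1 lower. The nuclear regulators had a median of -0.030 without the filter, against -0.20 with it. The translation factors had a median of -0.093 with the stricter filter, and mitochondrial transcription 0.013 after quantile normalization. A filter applied to each array, added after seeing the data, could not change the medians of the members or subunits. No kept member was under the filter value on either array, so the same genes were kept. The brightest probe set and leaving out genes above 16 could not change any member either. No member had several probe sets or a value above 16. In the absence of replicates, none of these differences can be set against array-to-array scatter.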

Other observations

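Motifs of other factors, known from promoters of mitochondrial genes, were searched on both strands after the values had been seen. CCGGAAG, a core of ETS factor sites such as those of the GA-binding protein, was found at 29 of 66 members (43.9%) and 24.8% of filtered genes. Members with it had a median difference of -0.10, against -0.09 for members without it. Over all filtered genes the medians were -0.0008 with and 0.0044 without it. GCGCANGCG, part of the nuclear respiratory factor motif, was found at 13 of 66 members (19.7%) and 19.0% of filtered genes. Of these 13 genes, all kept, 9 were lower in siYY1 and the median was -0.19, against -0.09 over the 50 kept members without it. Over all filtered genes, 50.5% were lower with the motif and 49.5% without it, with medians of -0.0028 and 0.0044. The matches are shown in capitals for the 3 lowest and the highest of these genes, 5′ to 3′ on the strand of the gene.
MRPS33, chr7:141015088-141015117, minus strand: tagccttactGCGCAGGCGccaggtacacc
MRPL17, chr11:6683402-6683431, minus strand: aggctctgatGCGCATGCGcaaacacgttc
MRPL57, chr13:21176574-21176603, plus strand: cctcggctctGCGCAGGCGcagtcctctct
MRPL22, chr5:154941039-154941068, plus strand: ccagagtattGCGCATGCGtgctgtccaga
MRPL17 held further matches, among them one that overlaps this stretch on the other strand. A match is a description of the letters and was not tested as a site.

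Several members have an annotated start within 1000 bases of that of another gene on the opposite strand, pointing away from it. Starts were taken from the promoter table, so the 8 members without an entry, MRPS28 and MRPL21 among them, could not be paired. Among genes with an entry, there were 13 such pairs in which both genes were kept. Of these, 6 (46.2%) had differences of the same sign, against 48.5% of all 503 such pairs that passed the filter. MRPL32 (-0.40) is paired with the proteasome subunit gene PSMA2 (0.17), and MRPL27 (-0.34) with the endonuclease gene EME1 (-0.35). MRPS18C (0.08) is paired with the helicase gene HELQ, which was 8.22 in siYY1 and 9.05 in siControl (difference -0.83). In 1 pair both genes are members, MRPL46 (-0.01) and MRPS11 (0.16).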
